A study of Mus musculus with 15 samples.

Results

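DNA methylation is written, erased and read by separate groups of proteins, and 8 genes that encode them were followed here in mouse brain. They were picked by name as the writers *Dnmt1* and *Dnmt3a*, the erasers *Tet1*, *Tet2* and *Tet3*, and the readers *Mbd1*, *Mbd2* and *Mbd3*, and all 8 had a row in the table of 23235 genes. The *Snord116* locus, which is expressed from the paternal chromosome only, encodes the spliced nuclear lncRNA *116HG* and is lost in Prader-Willi syndrome. The study asked where *116HG* contacts chromatin in adult brain, and which cortical transcripts change when it is lost in the light and in the dark phase of the day.

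The WT mice were C57BL/6J, and the *Snord116del* mice were B6(Cg)-Snord116tm1.1Uta/J heterozygotes (+/-) that inherited the deletion from the father, so that the deleted chromosome was the one that is normally expressed. Both were adult. RNA-seq was carried out on brain cortex at Zeitgeber time (Zt, hours after lights on) +6, in the light, from 3 WT and 2 *Snord116del* mice. At Zt +16, in the dark, it was carried out on 2 WT and 2 *Snord116del* mice. Chromatin isolation by RNA purification (ChIRP), in which biotinylated oligos complementary to an RNA pull down the DNA cross-linked to it, was carried out on 1 brain hemisphere per library. There were 2 WT libraries with *116HG* oligos, 1 *Snord116del* library with the same oligos, and 1 WT and 1 *Snord116del* library with non-specific control (NSC) oligos.

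In mammals, DNMT1 copies the methylation of CpG sites onto the new strand after DNA replication, while DNMT3A methylates sites that were not methylated before, including the non-CpG sites that accumulate in neurons after birth. TET proteins oxidise 5-methylcytosine to 5-hydroxymethylcytosine, which is abundant in neurons, and onwards to bases that are removed by base excision repair. MBD1 and MBD2 bind methylated CpG, and MBD2 or MBD3 is a subunit of the NuRD chromatin remodelling and deacetylase complex, in which MBD3 itself binds methylated DNA weakly.

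The RNA-seq table gave 1 FPKM value (fragments per kilobase of transcript scaled to the number of mapped fragments) per group and gene, so the spread between mice could not be seen and no test of a difference was possible. In its place, a gene was counted as higher or lower in a group when its FPKM + 1 was at least 1.5 times that of the other group and its FPKM reached 1 there, among the 10297 genes whose 4 groups averaged 1 FPKM or more. Of the 8 genes, 7 entered this count and *Tet1* did not. The values of a group summed to 159300 FPKM in WT at Zt +6, 160199 in *Snord116del* at Zt +6, 216422 in WT at Zt +16 and 342188 in *Snord116del* at Zt +16, so a difference in FPKM between groups also carries a difference in scale. *Snord116* itself was listed at 0 FPKM in all 4 groups, WT included, so its level did not check the genotypes. Markers of neurons and glia were present in each group, with 417 to 590 FPKM of *Snap25* (synaptic vesicle fusion). Markers of dividing cells summed to between 1.304 and 1.93 FPKM over the 5 genes of the list. In cortex taken whole, fewer cells of a type and less RNA per cell cannot be told apart.

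The readers *Mbd3* and *Mbd2* had the highest levels of the 8 genes in every group, and *Tet1* the lowest. *Mbd3* stood at 16.6 FPKM in WT at Zt +6, 15.1 in *Snord116del* at Zt +6, 15.1 in WT at Zt +16 and 24.5 in *Snord116del* at Zt +16. Its level in *Snord116del* at Zt +16 stood apart from the other groups, which lay close together. *Mbd2* stood at 10.2 FPKM in both genotypes at Zt +6, at 13.3 in WT at Zt +16 and at 16.1 in *Snord116del* at Zt +16, so both groups of the dark phase were higher than both of the light phase. *Mbd1* had levels of 2.26, 4.22, 2.18 and 3.32 FPKM in the same order of groups, and both *Snord116del* values were above both WT values.

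The maintenance methyltransferase gene *Dnmt1* stood at 4.18 FPKM in WT at Zt +6, 7.00 in *Snord116del* at Zt +6, 4.19 in WT at Zt +16 and 4.49 in *Snord116del* at Zt +16. The de novo methyltransferase gene *Dnmt3a* stood at 2.60, 6.51, 1.97 and 2.15 FPKM in these groups. For both writers a single group, *Snord116del* at Zt +6, stood above the other 3. An annotated transcript on the opposite strand, *Gm10485*, shares 133 exon bases with *Dnmt3a*. The strand setting of the counting is not given in the sources used here, so reads over those bases cannot be told apart.

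The erasers showed the widest range. *Tet2* stood at 1.496 FPKM in WT at Zt +6, 6.05 in *Snord116del* at Zt +6, 0.593 in WT at Zt +16 and 0.813 in *Snord116del* at Zt +16, and *Tet3* at 1.46, 5.10, 0.453 and 0.515 FPKM. *Tet1* followed the same order at lower levels, with 0.372, 0.998, 0.206 and 0.215 FPKM. All 3 *Tet* genes were thus highest in *Snord116del* at Zt +6, next in WT at Zt +6 and lowest in the dark phase of both genotypes.

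**Figure D1:**
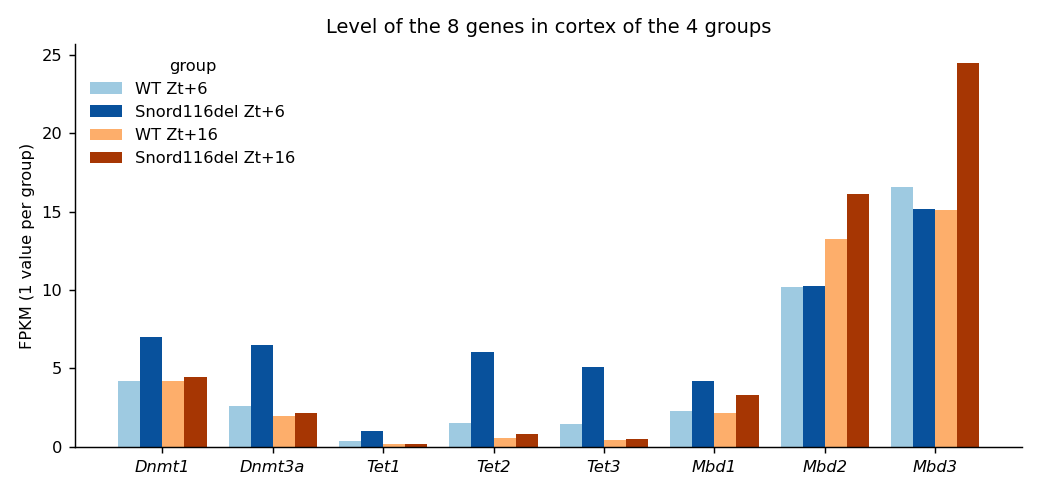
FPKM (vertical axis) of the 8 genes (horizontal axis) in cortex of WT and Snord116del mice at Zt +6 and Zt +16, with 1 bar for the single value of each group and no error bars because the table has no value per mouse. The *Tet* genes and both *Dnmt* genes are highest in *Snord116del* at Zt +6, while *Mbd2* and *Mbd3*, on the scale as deposited, are highest in *Snord116del* at Zt +16, at 16.1 and 24.5 FPKM.

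Ratios of 2 genes within a group do not depend on the scale of the group. The summed FPKM of the 3 *Tet* genes was 0.492 times that of *Dnmt1* and *Dnmt3a* in WT at Zt +6 and 0.899 times in *Snord116del* at Zt +6. At Zt +16 the same ratio was 0.203 in WT and 0.232 in *Snord116del*. The balance between eraser and writer transcripts therefore differed between genotypes in the light phase by more than it did in the dark phase, and it was higher in the light phase in both genotypes. *Tet2* was 0.576 and 0.929 times *Dnmt3a* at Zt +6 in WT and *Snord116del*, and 0.301 and 0.378 times at Zt +16. *Dnmt3a* was 0.622 and 0.930 times *Dnmt1* at Zt +6, and 0.469 and 0.479 times at Zt +16. Among the readers, *Mbd3* was 1.63, 1.48, 1.14 and 1.52 times *Mbd2* in WT at Zt +6, *Snord116del* at Zt +6, WT at Zt +16 and *Snord116del* at Zt +16. These ratios set genes of different transcript length beside each other, and length moved with the differences between groups, as given next.

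At Zt +6, 5 of the 7 genes passed the fold rule as higher in *Snord116del* than in WT, and none as lower. Over all genes tested, 49.3% passed as higher and 7.62% as lower. *Tet2* was 4.04-fold higher in FPKM and *Tet3* 3.48-fold, followed by *Dnmt3a* (2.50-fold), *Mbd1* (1.87-fold) and *Dnmt1* (1.68-fold). *Mbd2*, at 1.01-fold, and *Mbd3*, at 0.913-fold, did not pass. *Tet1* was 2.69-fold higher at under 1 FPKM in both groups.

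On the scale of log2(FPKM + 1), the median change of all tested genes at Zt +6 was 0.57, and the members were read against it. *Tet2* changed by 1.498, which was 0.93 above that median, *Tet3* by 1.31 (0.74 above) and *Dnmt3a* by 1.06 (0.49 above). *Mbd1*, at 0.68, and *Dnmt1*, at 0.63, lay 0.11 and 0.06 above it. *Mbd2*, at 0.01, and *Mbd3*, at -0.12, lay 0.56 and 0.69 below it (differences of -0.56 and -0.69). *Tet1*, which was not among the tested genes, changed by 0.54, a difference of -0.03 from it. Relative to the typical gene, *Tet2*, *Tet3* and *Dnmt3a* stood higher, *Dnmt1*, *Mbd1* and *Tet1* close to it, and *Mbd2* and *Mbd3* lower. When the groups were scaled to the same median, which moved the median of all genes by -0.63, *Tet2* and *Tet3* still passed as higher (0.86 and 0.69) and *Mbd2* and *Mbd3* passed as lower (-0.74 and -0.90), while *Dnmt1* turned to -0.07. Of all calls, 86.6% were higher as deposited, 37.9% under that scaling and 51.9% with quantile normalization.

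The change at Zt +6 rose with the length of the transcript. Its median over tested genes was -0.46 for genes whose longest annotated transcript was under 1000 bases (729 genes) and 1.34 for those of 8000 bases or more (489 genes). *Tet3* (10904 bases), *Dnmt3a* (9685 bases) and *Tet2* (9179 bases) were in the longest class, *Dnmt1* had 5264 bases, and *Mbd1*, *Mbd2* and *Mbd3* had 2833, 1953 and 1662 bases. The 544 other tested genes within 20% of the length of *Tet2* had a median change of 1.26 with quartiles of 1.00 and 1.49, so *Tet2* at 1.498 lay at their upper quartile. *Tet3* lay at the median of its 287 genes of like length (1.33), and *Dnmt3a* below the median of its 447 (1.29) but inside their quartiles. *Dnmt1*, at 0.63, lay at the lower quartile of its 1890 (0.64), whose median was 0.95. *Mbd1* was above the median of its 2404 (0.50), and *Mbd2* and *Mbd3* were below those of their 1706 and 1389 (0.25 and 0.13), all 3 inside the quartiles.

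With the trend over length removed from the change of every gene, no member passed the fold rule at Zt +6 in either direction, against 26.1% of all genes. *Tet2* was then at 0.23, *Mbd1* at 0.18 and *Tet3* at -0.03, and *Dnmt1*, *Dnmt3a*, *Mbd2* and *Mbd3* lay between -0.35 and -0.23. The values of *Dnmt1*, *Dnmt3a* and *Tet3* thus turned negative, which places them below the trend for their length, while their FPKM was higher in *Snord116del*. The part of transcript length in the differences of these genes was not tested further. A second fact about the libraries is that at Zt +6 an earlier table of values is named in the labels of both *Snord116del* mice and of 1 of the 3 WT mice, and the later one in those of the others. Whether those libraries differed in handling cannot be told apart from genotype at this time, or from time of day in *Snord116del*.

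**Figure D2:**
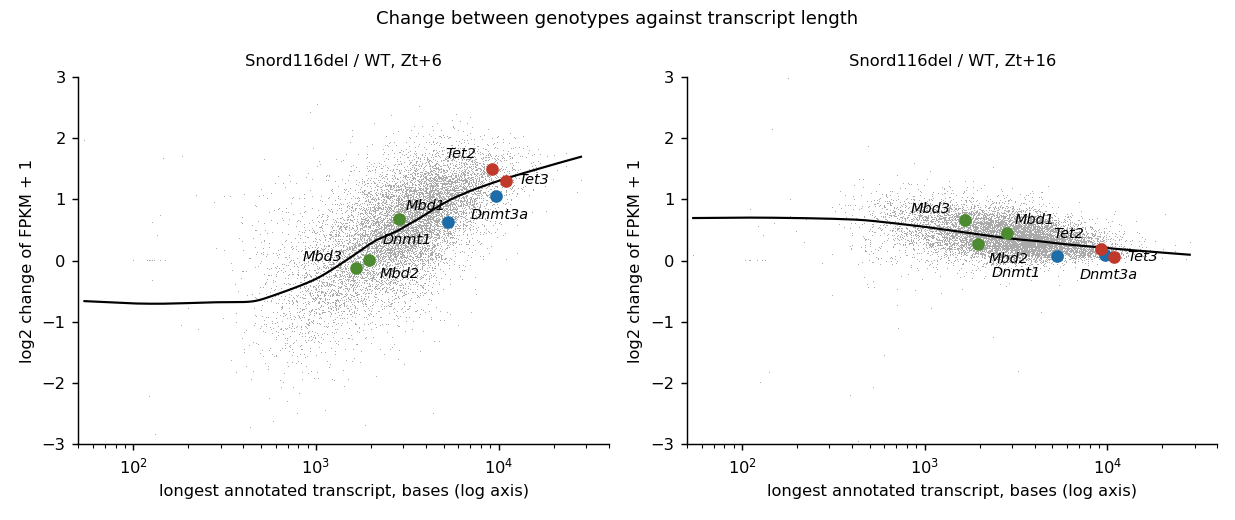
Change between genotypes on the scale of log2(FPKM + 1) (vertical axis) against the longest annotated transcript in bases (horizontal log axis), at Zt +6 (left) and Zt +16 (right), with 1 grey point per tested gene, a black lowess line over all of them and the 7 tested members as coloured points (writers blue, erasers red, readers green). The line climbs with length at Zt +6 and slopes down at Zt +16. At Zt +6 *Tet3* lies close to it (-0.03 from the trend), and *Tet2* and *Mbd1* lie above it (0.23 and 0.18). *Dnmt1*, *Dnmt3a*, *Mbd2* and *Mbd3* lie below it (-0.35, -0.23, -0.26 and -0.24). At Zt +16 *Dnmt1*, *Dnmt3a*, *Tet3* and *Mbd2* lie below it and *Mbd3* above it (-0.20, -0.12, -0.13, -0.17 and 0.20 from the trend). Outside the axes are 14 and 15 genes beyond 3 in either direction.

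Markers of several cell types moved with the members at Zt +6. All 7 astrocyte markers passed as higher in *Snord116del*, and their summed level was 315 FPKM against 111 in WT. All 5 tested endothelial markers did so too (26.3 against 9.38 FPKM summed over the list of 6), as did 4 of 5 markers of cortical excitatory neurons, 4 of 7 general neuron markers, 4 of 7 microglial, 3 of 7 oligodendrocyte and 1 of 2 tested choroid plexus markers. None of these lists had a marker that passed as lower and none had a marker listed at 0. With 49.3% of all genes passing as higher, the part of cell composition in the members' values was not tested.

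At Zt +16, a single member, *Mbd3*, passed as higher in *Snord116del* (1.62-fold in FPKM, 0.66 on the log2 scale) and none passed as lower. Over all genes, 19.0% passed as higher and 0.204% as lower, with a median change of 0.35. *Mbd3* lay 0.31 above that median and above the upper quartile (0.63) of its genes of like length. *Mbd1* changed by 0.44, *Mbd2* by 0.26, *Tet2* by 0.19, and *Dnmt1*, *Dnmt3a*, *Tet3* and *Tet1* by 0.08, 0.08, 0.06 and 0.01. All writers and erasers therefore lay below the median gene here, *Tet2* by the smallest margin, whereas at Zt +6 *Dnmt1*, *Dnmt3a*, *Tet2* and *Tet3* had been above it. The length trend ran the other way at Zt +16, from a median of 0.59 under 1000 bases to 0.18 at 8000 bases or more. *Dnmt1*, *Dnmt3a* and *Tet3* lay below the lower quartiles of their genes of like length (0.17, 0.11 and 0.11). *Mbd2* lay just below its own (0.264 against 0.267), and *Mbd1* and *Tet2* lay inside the quartiles. *Mbd3* no longer passed once the groups were scaled to the same median (0.22), to the same total (0.03) or to the same quantiles (0.13), or when the length trend was removed (0.20). Under each of the same 4 settings the changes of *Dnmt1*, *Dnmt3a*, *Tet3* and *Mbd2*, which had not passed, turned negative, so no direction can be given for them at this time. Of all calls at Zt +16, 98.9% were higher as deposited, 70.1% with the same median and 24.6% with the same total. Of the marker lists, 5 of 7 microglial and 4 of 7 oligodendrocyte markers passed as higher at this time, with sums of 145 against 78.2 and 1106 against 759 FPKM. So did 2 of 7 astrocyte and 1 of 7 general neuron markers. None of the 5 cortical excitatory neuron, 5 tested endothelial or 2 tested choroid plexus markers passed.

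The change between genotypes at Zt +6 minus that at Zt +16 was 1.31 for *Tet2*, 1.25 for *Tet3* and 0.98 for *Dnmt3a*, against a median of 0.22 over all tested genes. Genes of like length had medians of 1.05, 1.15 and 1.09, so *Tet2* lay just above their upper quartile (1.29), and *Tet3* and *Dnmt3a* lay inside the quartiles. With the length trend removed the difference was 0.26 for *Tet2*, 0.10 for *Tet3* and -0.11 for *Dnmt3a*. As deposited it was 0.55 for *Dnmt1*, 0.53 for *Tet1* and 0.24 for *Mbd1*. For *Mbd2* (-0.26) and *Mbd3* (-0.78) it was negative, and *Mbd3* was the only member whose change had opposite signs at the 2 times, as had 24.0% of all tested genes and 41.9% of the 1389 of like length. With 1 value per group, none of these differences was tested, and the labels of both *Snord116del* mice at Zt +6 name the earlier table of values.

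**Figure D3:**
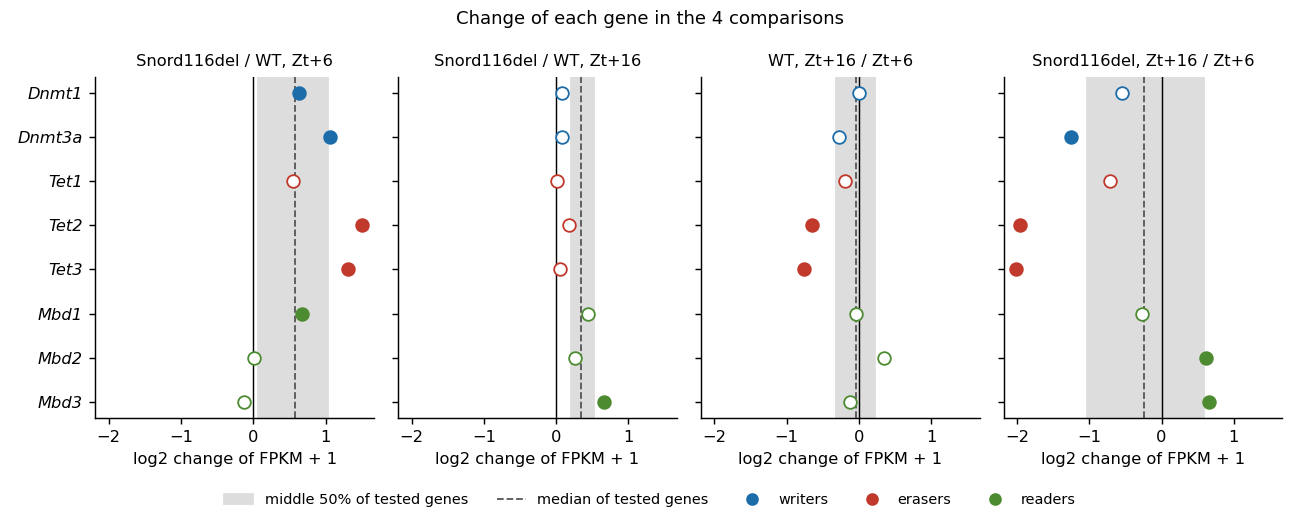
Change of each gene (vertical axis) on the scale of log2(FPKM + 1) (horizontal axis) in the 4 comparisons, with filled points for genes that passed the fold rule and open points for those that did not or, for *Tet1*, were not tested. The grey band holds the middle 50% of tested genes and the dashed line is their median. *Tet2* and *Tet3* lie right of the band in *Snord116del* against WT at Zt +6 (1.498 and 1.31) and left of it in both comparisons of time, but with the length trend removed none passed and *Tet3* turned to -0.03 at Zt +6.

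Between the light and the dark phase in WT, *Tet2* and *Tet3* passed as lower at Zt +16 than at Zt +6, and no member passed as higher. They changed by -0.65 and -0.76 on the log2 scale, where 10.3% of all genes passed as lower and 5.71% as higher around a median of -0.04. In FPKM, *Tet2* at Zt +16 was 0.397 times and *Tet3* 0.309 times its level at Zt +6. *Dnmt3a* changed by -0.28 and *Mbd2* by 0.35, and *Dnmt1*, *Mbd1* and *Mbd3* by 0.0049, -0.04 and -0.13. *Tet2* and *Tet3* each lay beyond the lower quartile of genes of their length (-0.64 and -0.74), but neither passed once the trend over length was removed (-0.18 and -0.22). Of all calls, 35.7% were higher, and the share was 53.5% with groups scaled to the same median and 1.74% with the same total. Of the marker lists, 5 of 7 astrocyte markers passed as lower at Zt +16 in WT (65.9 against 111 FPKM summed), as did 1 of 2 tested choroid plexus markers, whose summed level over the list of 5 was 26.4 against 203 FPKM. So did 2 of 7 general and 2 of 5 cortical excitatory neuron markers and 1 of 5 tested endothelial markers. Of the 7 oligodendrocyte markers 1 passed as higher and 1 as lower, and none of the 7 tested microglial markers passed.

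In *Snord116del*, 3 members passed as lower at Zt +16 than at Zt +6 and 2 as higher, against 39.1% and 25.0% of all genes. The labels of both *Snord116del* mice at Zt +6 name the earlier table of values, so a difference in handling cannot be told apart from time here. *Tet3* changed by -2.01 and *Tet2* by -1.96 on the log2 scale, and *Dnmt3a* by -1.25, with FPKM at Zt +16 that were 0.101, 0.134 and 0.330 times those at Zt +6. *Mbd3* changed by 0.66 and *Mbd2* by 0.61 in the other direction, although with the groups scaled to the same total both turned negative (-0.38 and -0.40). *Dnmt1* changed by -0.54 and *Mbd1* by -0.27, and with the same total both newly passed as lower (-1.44 and -1.10), so that 5 members were lower and none higher, against 66.3% and 8.26% of all genes. Of all calls, 39.0% were higher as deposited, 57.0% with the same median and 11.1% with the same total. With the length trend removed no member passed: *Tet2* was at -0.42, *Tet3* at -0.30, and *Dnmt3a* and *Dnmt1* turned to 0.34 and 0.39. Of the marker lists, 5 of 7 astrocyte markers passed as lower at Zt +16 in *Snord116del* (99.9 against 315 FPKM summed), as did all 5 tested endothelial markers (8.10 against 26.3) and both tested choroid plexus markers (31.7 against 187). Of the 7 oligodendrocyte markers 3 passed as higher and 3 as lower (1106 against 759 FPKM), of the 7 tested microglial markers 2 and 1, and 3 general and 3 cortical excitatory neuron markers passed as lower. The part of cell composition in these values was not tested. Both comparisons of time share their groups with the comparisons of genotype, so the 4 sets of values are not independent of each other.

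Of the 57 partner genes of the 8, in 5 lists, 44 were tested. At Zt +6, 23 of the 44 passed as higher in *Snord116del* and 2 as lower, with a median change of 0.63 beside 0.57 for all genes, and at Zt +16, 5 passed as higher and none as lower. The first share is close to that of all genes at Zt +6, and the second is below that of all genes at Zt +16.

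Among the other writers and their cofactors, 2 of 4 tested genes passed as higher at Zt +6 and 1 as lower. *Usp7*, a deubiquitinase that acts on DNMT1 and UHRF1, stood at 9.14 FPKM in *Snord116del* against 2.28 in WT, and *Uhrf2*, a paralogue of the factor that brings DNMT1 to newly made DNA, at 3.60 against 1.53. *Dmap1*, which encodes a DNMT1-associated protein, stood at 4.85 against 8.61 at Zt +6 and at 22.4 against 12.7 at Zt +16, where it passed as higher together with *Pcna*, the sliding clamp that DNMT1 binds at replication forks (27.1 against 14.7). The direction of *Dmap1* between genotypes was thus opposite at the 2 times, which was not tested, and its longest transcript has 1862 bases. By the sign of the change, 21.6% of all tested genes were likewise lower at Zt +6 and higher at Zt +16. The share was 30.5% among genes as long as *Mbd2* and 40.4% among those as long as *Mbd3*. *Dnmt3b* and *Dnmt3l*, the other de novo methyltransferase and its cofactor, were under 0.12 FPKM in all groups.

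Of the genes that supply methyl groups, 1 of 6 passed as higher at Zt +6, *Mat2a*, which encodes the S-adenosylmethionine synthase of most tissues, with 60.5 FPKM against 22.7. At Zt +16, 1 of 6 passed, the serine hydroxymethyltransferase gene *Shmt2*, with 8.76 against 4.81. In the list of erasure after TET oxidation, 6 of 12 passed as higher and 1 as lower at Zt +6. The largest rises were those of *Ogt*, the O-GlcNAc transferase that binds TET proteins, with 13.2 against 3.11 FPKM, of *Idh1*, which makes the TET cofactor 2-oxoglutarate, with 5.88 against 2.33, and of *Cxxc4*, a regulator of TET2, with 2.30 against 0.810. Their longest transcripts have 5384, 2302 and 4669 bases. *Idh1* changed by 1.05 on the log2 scale, where the median of tested genes of 2000 to 3000 bases was 0.42. *Gadd45g*, a stress-response gene with a proposed part in demethylation, was the 1 that passed as lower, with 6.41 against 18.2 at Zt +6 (-1.37 on the log2 scale), and stood at 29.1 against 15.7 at Zt +16, and its longest transcript has 1071 bases. At Zt +16 it was the 1 of 12 that passed as higher. A change that was negative at Zt +6 and positive at Zt +16 was found in 21.6% of all tested genes.

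Of the other MBD family genes and readers of methylated or unmethylated CpG, 6 of 8 passed as higher at Zt +6, with a median change of 1.10, and 1 of 8 at Zt +16. They included *Kdm2a*, a demethylase that binds unmethylated CpG (7.32 against 1.89 FPKM), *Zbtb38*, a zinc finger protein that binds methylated CpG (5.15 against 1.32), and *Mbd5* (10.7 against 3.65), all with longest transcripts of 5922 bases or more. At Zt +16 the gene was *Cxxc1*, which binds unmethylated CpG (19.4 against 10.9). Of the 14 NuRD and other MBD partners, 8 passed as higher at Zt +6 and none at Zt +16. The NuRD genes *Gatad2b* (17.9 against 5.55 FPKM) and *Chd3* (27.7 against 8.96) and the MBD1 partner *Atf7ip* (12.3 against 4.03) had the largest changes. Their longest transcripts have 1906, 7261 and 4525 bases. *Gatad2b* changed by 1.53 on the log2 scale, where the median of tested genes of 1000 to 2000 bases was 0.04. In the comparisons of time, of the 44 tested genes of all 5 lists, 1 passed as higher and 8 as lower at Zt +16 in WT. Over all genes the shares were 5.71% and 10.3%. In *Snord116del*, 7 of the 44 passed as higher and 20 as lower, where 25.0% and 39.1% of all genes did.

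The tested genes whose pattern over the 4 groups was nearest to the median pattern of the 7 tested members were *Plekhm1*, *Myrip* and *Dmp1*. Their Euclidean distances, over 4 centred log2(FPKM + 1) values, were 0.0549, 0.0553 and 0.0560, while the members themselves lay between 0.129 (*Dnmt1*) and 1.16 (*Tet3*) from it. *Plekhm1*, for example, stood at 1.85, 3.23, 1.52 and 1.96 FPKM in WT and *Snord116del* at Zt +6 and in WT and *Snord116del* at Zt +16. The median pattern, taken over these same 7 members, is thus nearest among them to that of *Dnmt1*. The distance carries no direction. By their levels, *Tet2* and *Tet3* were highest in *Snord116del* at Zt +6, and the readers *Mbd2* and *Mbd3* in *Snord116del* at Zt +16.

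In the ChIRP-seq data, 7 of the 8 genes had a peak of WT *116HG* replicate 1 inside the gene or within 2 kb of it, all but *Tet1*. Over all tested genes with an annotation the share was 93.6%. The 61 peaks were spread as 9 at *Dnmt1*, 13 at *Dnmt3a*, 12 at *Tet2*, 13 at *Tet3*, 5 at *Mbd1*, 5 at *Mbd2* and 4 at *Mbd3*. Replicate 2 had 3 peaks at the 8 genes, 1 each at *Dnmt3a*, *Tet1* and *Mbd2*, where 17.5% of all tested genes had a peak. No control list had a peak at any of them, and the shares of tested genes with a peak were 2.53% for WT NSC (3648 peaks), 2.86% for *Snord116del* *116HG* (1280 peaks) and 10.6% for *Snord116del* NSC (3418 peaks). With 8 genes and these shares, a count of 0 in the controls does not set the genes apart from the rest.

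For 6 of the 7 genes the number of replicate 1 peaks lay inside the quartiles of genes of like size, and for *Tet3* it was just above the upper quartile. *Dnmt3a* (13), *Tet3* (13) and *Tet2* (12) had counts at or close to the upper quartile of tested genes within 20% of their length (14, 12 and 12). *Dnmt1* had 9, where such genes had a median of 6, and *Mbd1*, *Mbd2* and *Mbd3* had 5, 5 and 4 beside medians of 4, 6 and 3. The absence of replicate 1 peaks at *Tet1*, 94.5 kb long, went with a mean level of 0.447 FPKM. Among the 1050 genes of 40 kb or more with a mean of 0.1 to 0.5 FPKM, 49.9% had a replicate 1 peak, against 99.5% of those at 10 FPKM or more.

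Most replicate 1 peaks at the 8 genes lay over exons. Of the 61, 32 had their middle in a coding exon, 17 in a 3′ UTR, 2 in a 5′ UTR and 10 in an intron, so that 51 (83.6%) lay in exons, which make up 13.3% of the bases of the 8 genes. Over all tested genes, 86.1% of the 60051 replicate 1 peaks inside them lay in exons, which make up 7.27% of their bases. The members thus shared the exonic placement of the whole list. Of the 2195 replicate 2 peaks inside tested genes 4.92% lay in exons, of 289 WT NSC peaks 4.84%, of 287 *Snord116del* *116HG* peaks 32.1% and of 1090 *Snord116del* NSC peaks 42.2%. All 3 of the replicate 2 peaks at the members were intronic. The share of genes with a replicate 1 peak also followed the RNA level, from 19.4% of genes under 0.1 FPKM to 99.3% of those at 10 FPKM or more, and that of replicate 2 rose from 8.78% under 0.1 FPKM to 19.5% at 1 to 3 FPKM and was 12.3% at 10 FPKM or more. What makes the lists of the replicates differ was not tested.

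**Figure D4:**
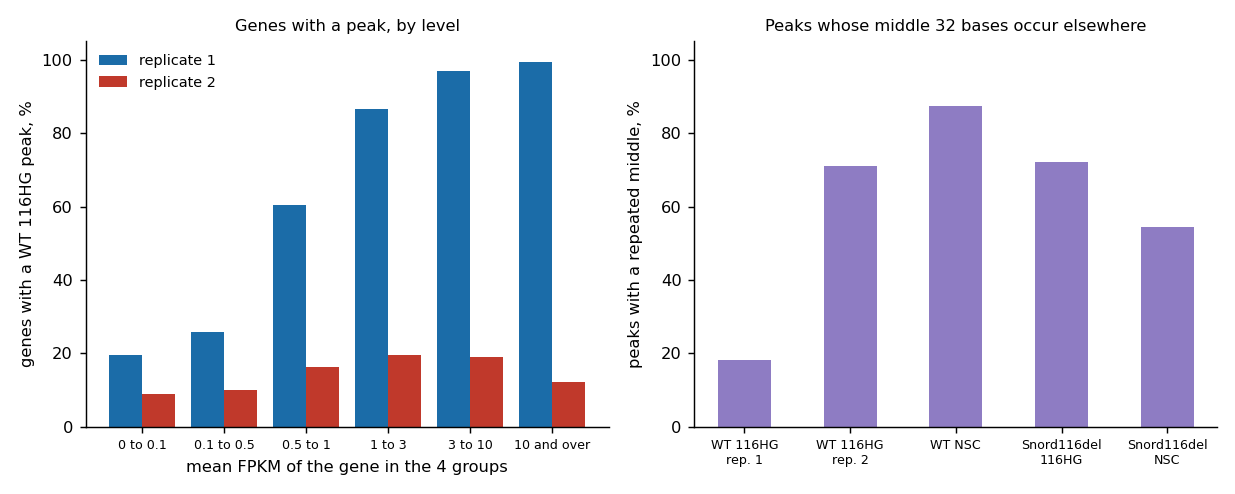
Left, the percentage of genes with a WT *116HG* peak inside the gene or within 2 kb (vertical axis) by the mean FPKM of the gene in the 4 groups (horizontal axis), for replicate 1 (blue, from 19.4% to 99.3%) and replicate 2 (red). Right, the percentage of peaks of each of the 5 lists whose middle 32 bases occur more than once in the genome, lowest in replicate 1 (18.1%) and highest in WT NSC (87.4%).

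Peaks at the start of a gene were found for 3 members. The replicate 1 peak of *Dnmt1* was centred 91 bases after the start of the gene in its first coding exon, with a fold over input of 133, the highest of the 61. That of *Tet2* was centred 118 bases after the start, in the 5′ UTR (fold over input 55.3), and that of *Mbd1* 41 bases after it, also in the 5′ UTR (92.3). They held 17, 14 and 13 CpG sites. The fold over input of the 61 peaks ranged from 24.9 to 133 with a median of 51.3, beside 55.3 for the whole list. Several peaks shared exactly the same fold, such as 41.04, 51.3 or 102.6, so the fold ranks the peaks only coarsely. At the other end of the genes, each of the 7 genes with replicate 1 peaks had at least 1 in a 3′ UTR, the highest of them at *Mbd3* (121.8).

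**Figure D5:**
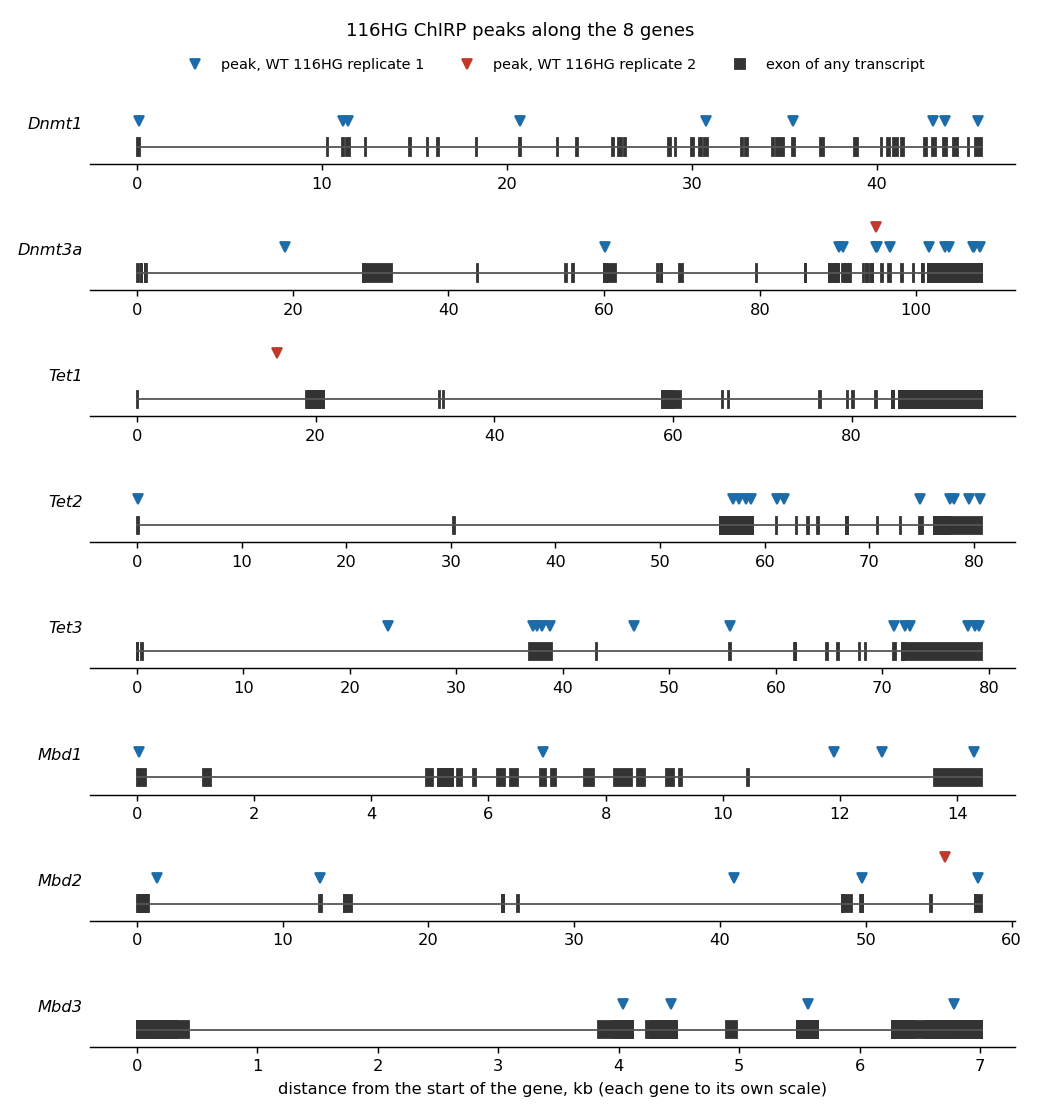
The 8 genes drawn from their start (horizontal axis, distance in kb, each gene to its own scale), with exons of any annotated transcript as dark boxes and the middle of each WT *116HG* peak as a triangle, blue for replicate 1 (61 peaks) and red for replicate 2 (3 peaks). Most blue triangles stand over exons, and the red ones, at *Dnmt3a*, *Tet1* and *Mbd2*, stand over introns.

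A replicate 1 peak was counted as replicated when a replicate 2 peak lay within 10 kb of it. By this rule *Dnmt3a* had 8 replicated peaks and *Mbd2* 2, and the other 6 genes none, so that 2 of the 8 genes had one. Over all tested genes the share was 18.0%, and it was 23.7% among genes as long as *Dnmt3a* and 21.9% among those as long as *Mbd2*. The 8 replicated peaks of *Dnmt3a* all depended on a single replicate 2 peak. When the peaks of the replicates had to share bases, *Dnmt3a* alone remained, with 1 pair.

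The pair lay in an intron of *Dnmt3a* (mm9, plus strand), 94.8 kb after the start of the gene, where the replicate 1 peak of 131 bases and the replicate 2 peak of 88 bases shared 85 bases. Its sequence is shown because it is the only place at the 8 genes where both replicates had a peak on the same bases. In the first line, at chr12:3900780-3900913 (plus strand), the capitals mark the bases within both peaks, which include long runs of A. The second line is a replicate 1 peak over a coding exon of *Tet3* at chr6:83335967-83336071 (plus strand), with CpG sites in capitals. It was picked for the highest fold over input among shorter coding-exon peaks that overlap no UTR, with *Mbd1* and *Mbd2* left out. Its fold over input is 102.6, where the median of the 32 coding-exon peaks was 46.6, so it is not a typical one.
Dnmt3a intron, both replicates: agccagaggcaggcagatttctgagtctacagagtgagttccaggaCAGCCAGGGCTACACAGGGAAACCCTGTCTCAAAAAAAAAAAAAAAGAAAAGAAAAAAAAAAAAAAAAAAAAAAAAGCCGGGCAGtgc
Tet3 coding exon, replicate 1: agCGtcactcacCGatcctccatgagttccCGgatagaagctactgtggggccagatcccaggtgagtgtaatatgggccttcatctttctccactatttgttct

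Copies of the bases of a peak were counted in the genome sequence, on both strands. The 32 bases in the middle of the replicate 1 and replicate 2 peaks of the *Dnmt3a* pair occur 68 and 3 times in mm9. Of all 32-base windows, 95% in the *Dnmt3a* replicate 1 peak and 96.5% in its replicate 2 peak occur more than once. A read from such bases can match more than 1 place, and how the aligner placed those reads bears on where the peaks stand.

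The exonic peaks differed from this pair. None of the 51 exonic replicate 1 peaks at the members had a middle of 32 bases that occurs more than once, while 3 of the 10 intronic ones did, of which 1 was the *Dnmt3a* peak of the pair and 2 were at *Tet3*. All 3 replicate 2 peaks did. In the whole lists the share was 18.1% for replicate 1 and 71.0% for replicate 2, and 87.4%, 72.1% and 54.3% for WT NSC, *Snord116del* *116HG* and *Snord116del* NSC. Away from the middle, up to 10.2% of the 32-base windows of an exonic replicate 1 peak occur more than once. At the members, then, the exonic peaks of replicate 1 had middles found once in the genome and no counterpart on the same bases in replicate 2, and the place shared by both replicates stood in repeated sequence.

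In mm9 coordinates, *Dnmt1* lies on chromosome 9 from 20711650 to 20757317 (minus strand), *Dnmt3a* on chromosome 12 from 3806007 to 3914443 (plus strand), *Tet1* on chromosome 10 from 62267318 to 62361866 (minus strand), *Tet2* on chromosome 3 from 133126643 to 133207354 (minus strand) and *Tet3* on chromosome 6 from 83312367 to 83391672 (minus strand). Of the readers, *Mbd1* lies on chromosome 18 from 74427926 to 74442339 (plus strand), *Mbd2* on chromosome 18 from 70727843 to 70785785 (plus strand) and *Mbd3* on chromosome 10 from 79855284 to 79862295 (minus strand).

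Peaks and RNA levels were set side by side without a test. Of the 5 genes that passed as higher in *Snord116del* at Zt +6, all had replicate 1 peaks (5 to 13 each) and 1, *Dnmt3a*, had replicated peaks. Of the 2 that did not pass, *Mbd2* had 5 replicate 1 peaks, 2 of them replicated, and *Mbd3* had 4. The replicated genes thus included the member with the third largest change at Zt +6 and one that did not pass.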

How the data were processed

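RNA-seq of cortex (9 mice in 4 groups) and ChIRP-seq peak lists of adult brain (5 libraries) were analysed. The authors aligned RNA-seq reads with TopHat2 2.0.5 to mm9 and deposited 1 Cuffdiff 2.0.2 FPKM value per group and gene, with no value per mouse. The deposited columns of log2 fold change, q-value and significance hold the authors' own comparisons and were not used. ChIRP-seq reads were aligned by the authors with Bowtie2 2.0.0 to mm9, and peaks were called in each library with MACS 1.4.2 against a WT input and kept where they exceeded input more than 20-fold at an FDR below 5%. This fold, a ratio deposited for each peak, was used to describe peaks, and the list of replicate 2 has positions only. Versions are from the submitters' processing notes, which also name CASAVA 1.8.0 and give no role to a tool. Depth per library was not in the files, and the number of columns of other samples left out was 0.

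FPKM were compared by the fold rule given in the report, with a pseudocount of 1. Genes were matched by symbol to GENCODE vM1 of NCBIM37, the assembly of mm9, which gave a transcript length for 98.7% of those tested. The trend over length was a lowess of the change on log2 length (span 0.3). Peaks were placed by their middle base, and copies of 32-base windows were counted on both strands of the genome. The sequences of other intronic peaks are not reported here. The peak lists have no header, and starts were read as 0-based. The fold rule, the trend and the counting of copies were tested on simulated data. Versions were Python 3.11.15, statsmodels 0.14.6, matplotlib 3.10.9, numpy 2.4.6 and pandas 2.3.3.

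The 8 members, the 5 partner lists and the 8 lists of cell type markers were chosen with earlier results of these data known. Named genes were the members, up to 3 genes of each partner list with the largest rise and fall among those past the fold rule at each time, and the 3 genes nearest to the median pattern. *Dnmt3b*, *Dnmt3l*, *Gm10485*, *Snap25* and *Snord116* were named outside that rule, after their values were seen. Alternatives covered the pseudocount, the filter, the fold, the scale of the groups, the length trend, and the distances and thresholds of the peaks.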

Additional observations from a re-analysis of the deposited data

Results flagged for a closer look

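*Mbd3* is given here because its change between genotypes had opposite signs at the 2 times. On the scale of log2(FPKM + 1) it was -0.12 at Zt +6 (15.1 FPKM in *Snord116del* and 16.6 in WT) and 0.66 at Zt +16 (24.5 and 15.1 FPKM), a difference of -0.78, where the median over all tested genes was 0.22. Opposite signs were common, in 24.0% of all tested genes and in 41.9% of the 1389 genes of like length, whose median difference was -0.33 with quartiles of -0.81 and 0.13, so *Mbd3* lay inside the quartiles. With the length trend removed its difference was -0.44. The table has 1 value per group, so the difference was not tested. The summed FPKM of all genes also differed between the groups, at 159300 and 160199 at Zt +6 and 216422 and 342188 at Zt +16 (WT first), and the change of *Mbd3* at Zt +16 was 0.03 with the groups scaled to the same total.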

How the results depend on the processing

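No paired analysis was possible because the table gives group values with no column per mouse, and for the same reason no mouse could be left out in turn. The counts of members past the fold rule moved as follows. *Snord116del* against WT at Zt +6 gave 5 of 7 as reported, 2 of 4 with a mean of at least 3 FPKM, 3 with a 2-fold rule and 0 with the length trend removed, and 4 with the groups scaled to the same median or quantiles, of which 2 were higher and 2 lower. At Zt +16 it gave 1 as reported, 2 with a pseudocount of 0.1, and 0 with the same median, the same total, quantile normalization, the length trend removed or a 2-fold rule. WT Zt +16 against Zt +6 gave 2 as reported, 3 with the same total, where *Dnmt3a* newly passed as lower (-0.60), 1 with quantile normalization and 0 with a mean of at least 3 FPKM, the length trend removed or a 2-fold rule. In *Snord116del* the comparison of times gave 5 as reported (2 higher and 3 lower), 5 with the same total (none higher), 3 with a mean of at least 3 FPKM or a 2-fold rule and 0 with the length trend removed.

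Of 184 changes of single genes under an alternative, 119 kept their direction and their side of the rule, 17 no longer passed and 7 newly passed in the same direction, and 41 changed sign. Of these 41, 9 had passed as reported and 32 had not. Those that had passed, or that newly passed in the other direction, were at Zt +6 *Dnmt1* with the same median (-0.071), quantile normalization (-0.032) and the length trend removed (-0.35), *Mbd1* with quantile normalization (-0.00071), *Dnmt3a* (-0.23) and *Tet3* (-0.033) with the length trend removed, and *Mbd2* with the same median (-0.74) and quantile normalization (-0.60), and between the times in *Snord116del* *Mbd2* (-0.40) and *Mbd3* (-0.38) with the same total and *Dnmt3a* (0.34) with the length trend removed. The other 30 changes of sign were of values that passed neither as reported nor under the alternative. At Zt +16 there were 20, among them *Dnmt1*, *Dnmt3a*, *Tet3* and *Mbd2* under all of the 3 scalings and the length trend. At Zt +6 there were 2, both of *Mbd2* (-0.00029 with the same total, -0.26 with the length trend removed). There were 5 between the times in WT, such as *Dnmt1* (-0.36) and *Mbd2* (-0.06) with the same total, and 3 in *Snord116del*, *Mbd1* with the same median (0.11) and quantile normalization (0.21) and *Dnmt1* with the length trend removed (0.39). The causes were not tested.

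Of the 8 genes, 2 had a replicated peak, 1 when the replicates had to overlap, and 3 and 7 when WT *116HG* replicate 1 or replicate 2 was left out and any peak of the other counted. The other 6 peak alternatives gave 2 or 3 genes. The 7 genes with a replicate 1 peak stayed at 7 under its 3 alternatives. Without values per mouse, no error can be put on any FPKM, and the fold over input covers a single library each.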
